A study of Homo sapiens with 16 samples.

Results

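Transcript levels of 7 kallikrein genes were followed in LNCaP cells given an androgen, an antiandrogen, or both. KLK3 encodes prostate-specific antigen (PSA), the serum marker of prostate cancer. The other members were KLK1, KLK2, KLK4, KLK10, KLK11 and KLK15, and all 7 were rows of a deposited table of 60642 genes. Levels are in TPM, a unit that scales each library to a fixed total and divides the reads of a gene by its length, so that levels of different genes can be set side by side. Of the 7 members, 4 (KLK2, KLK3, KLK4 and KLK15) reached 1 TPM in at least 2 of the 16 libraries and were tested. KLK1, KLK10 and KLK11 did not and are given by their levels alone.

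LNCaP is an established human prostate cancer line (here clone FGC) whose growth responds to androgen. All cells grew for 72 h in 5% fetal bovine serum, then spent 48 h in 5% charcoal-stripped serum, from which most steroids have been removed, before 48 h of treatment. VEH cells received both solvents, ethanol and DMSO, and DHT cells received 10 nM dihydrotestosterone. The antagonists were BIC (bicalutamide), ENZ (enzalutamide) and APA (apalutamide, ARN in the labels), each given at 10 µM, alone (BIC.VEH, ENZ.VEH and APA.VEH) or together with DHT (BIC.DHT, ENZ.DHT and APA.DHT). Each of the 8 groups had 2 replicates, and 1 line at 1 dose and 1 time is the whole model. The labels call them biological replicates, and p-values measure the spread between them. Libraries with the same replicate number deviated from their group means together. Without the replicate number in the fit, the spread includes this shared shift, so fits with the number as a block are given where they changed a call.

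Kallikreins are secreted serine proteases made as inactive zymogens. In the prostate, KLK2 and KLK3 are released into seminal fluid, where KLK3 cleaves the semenogelins of the seminal clot, and KLK2 and KLK4 can remove the activation peptide of other kallikreins. KLK2, KLK3 and KLK4 have long been known as genes that androgens such as DHT induce in the prostate epithelium. BIC, ENZ and APA are antiandrogens, drugs that oppose the action of androgens on their target cells. ENZ and APA share a diarylthiohydantoin core, whereas BIC is an anilide with a sulfonyl linker.

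The kallikrein cluster holds 16 genes, 15 of them protein coding, over 265.1 kb of chromosome 19 (50819146 to 51084210, RefSeq on GRCh38.p14). KLK1 lies at 50819146 to 50823787 and KLK15 at 50825289 to 50833574. KLK3 lies at 50854915 to 50860764 and KLK2 at 50873439 to 50880567, both on the plus strand and 12674 bp apart. KLK4 follows on the minus strand at 50906351 to 50911395, with the pseudogene KLKP1 between it and KLK2 (50882096 to 50896398). KLK10 (51012739 to 51020097) and KLK11 (51022236 to 51027991) lie in the distal part of the cluster. The promoters of KLK3 and KLK2 are shown because these genes gave the highest DHT responses among the genes tested and because their promoters are close copies. Each window runs from 250 bases before to 50 bases after the annotated start, on the plus strand of GRCh38.p14 from RefSeq (KLK3 chr19:50854665-50854964, KLK2 chr19:50873189-50873488). Capitals mark the 15 bases closest to the androgen response element, whose arms AGAACA and TGTTCT stand 3 bases apart.
KLK3: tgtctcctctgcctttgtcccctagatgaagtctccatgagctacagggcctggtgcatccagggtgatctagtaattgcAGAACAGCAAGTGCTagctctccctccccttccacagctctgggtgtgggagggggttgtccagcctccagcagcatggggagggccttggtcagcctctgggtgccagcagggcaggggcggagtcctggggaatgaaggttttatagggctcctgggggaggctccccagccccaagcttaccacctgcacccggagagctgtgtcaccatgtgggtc
KLK2: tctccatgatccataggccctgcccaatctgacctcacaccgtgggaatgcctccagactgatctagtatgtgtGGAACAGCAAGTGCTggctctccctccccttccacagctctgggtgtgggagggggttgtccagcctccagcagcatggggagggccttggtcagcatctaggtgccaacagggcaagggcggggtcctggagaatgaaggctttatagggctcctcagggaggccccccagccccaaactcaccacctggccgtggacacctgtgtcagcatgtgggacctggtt

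In KLK3 the marked bases begin at position -170 from the start and differ from the element at 2 of its 12 fixed positions, a match that 1.41% of 35116 RefSeq promoter windows equalled or bettered. In KLK2 they begin at -176 and differ at 3 positions, which 10.81% of windows equalled or bettered. The element reads the same on both strands, so 1 search covered both. Between the 2 marked stretches the only difference was A1G, with the KLK3 base first and positions counted from the 5′ end. That base completes the 6-base arm AGAACA in KLK3, which 14.79% of all windows hold on either strand. Over the whole window KLK2 and KLK3 were 78.5% identical, against 42.2% to 49.3% for the other 14 pairs among the 6 members with a window. The best matches in the windows of KLK4 and KLK15 had at least 5 mismatches, a level that 89.2% of windows reach. The window of KLKB1, the plasma kallikrein gene on chromosome 4, matched the element as closely as that of KLK3, with 2 mismatches, and its level was 0.26 and 0.39 TPM in VEH and 0.31 and 0.35 TPM in DHT. KLK1 had no window in the table. A match of letters is a description only, and the element can lie outside these windows.

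The luminal prostate markers were present in every library, with KRT8 at 546 to 976 TPM, KRT18 at 452 to 908 TPM, FOLH1 at 647 to 1022 TPM, HOXB13 at 149 to 258 TPM and TMPRSS2 at 24.1 to 429 TPM. Of the basal, leukocyte, endothelial and neuroendocrine markers, KRT14, CD68, VWF and SYP reached the filter, and these lists summed to 0 to 1.92, 1.04 to 12.2, 0.62 to 1.90 and 0.83 to 2.30 TPM. COL1A1, the only fibroblast marker of 4 at the filter, carried a sum of 11.4 to 32.9 TPM, and COL1A2 never exceeded 0.01 TPM. No depth can be read from TPM, and the counting error of each value is therefore unknown.

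Without androgen, KLK3 was measured at 53.0 and 24.0 TPM in the 2 VEH libraries, and with DHT at 4102 and 2422 TPM. KLK2 stood at 4.78 and 3.60 TPM in VEH and at 494 and 485 TPM in DHT. KLK4, which encodes a protease of prostate and of developing enamel, stood at 42.0 and 22.1 TPM in VEH and at 523 and 407 TPM in DHT. For these 3 genes every DHT library lay above every VEH library. KLK15, whose product can activate the PSA zymogen in vitro, was at 0.44 and 0.22 TPM in VEH and reached 3.80 and 2.79 TPM in DHT. In bulk RNA, more cells making a transcript and more transcript per cell cannot be told apart.

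**Figure D1:**
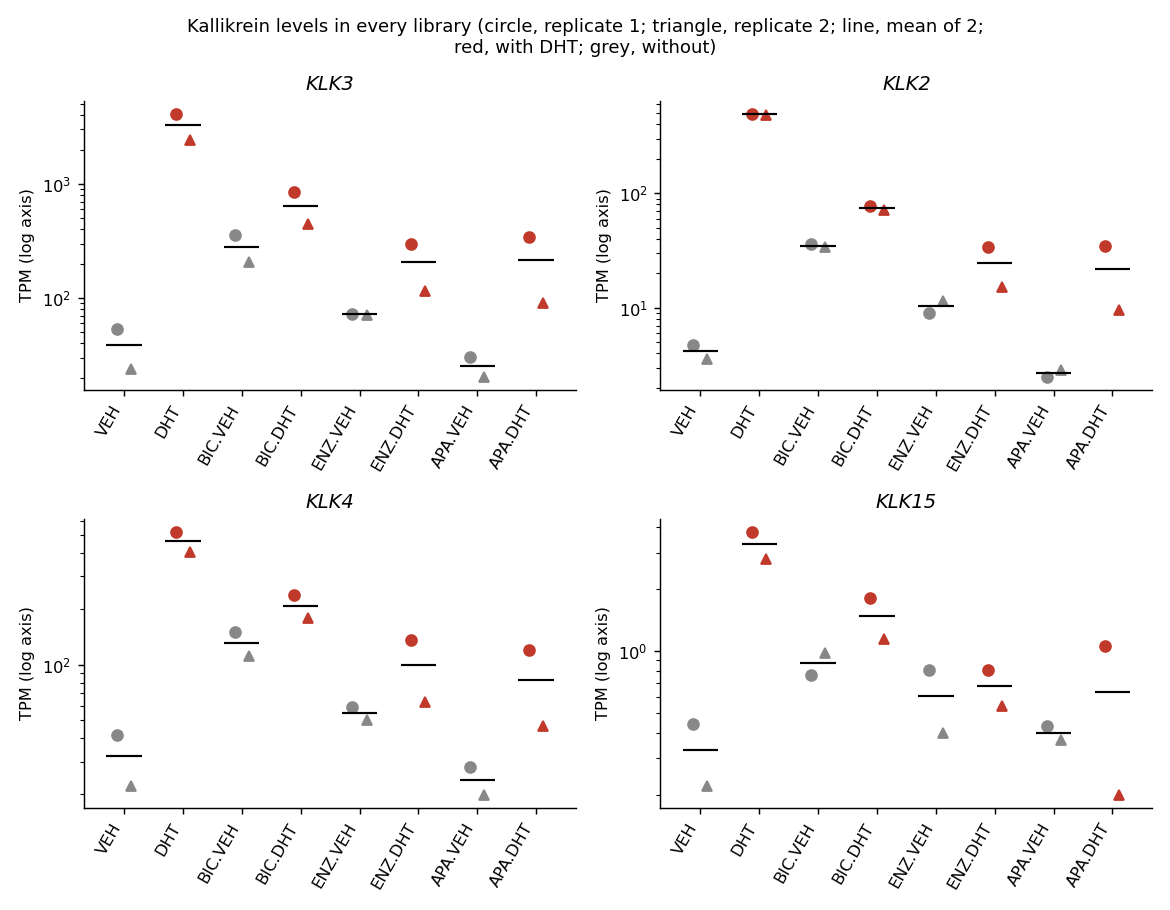
TPM (log axis) of KLK3, KLK2, KLK4 and KLK15 in each of the 16 libraries, by treatment group; circles are replicate 1, triangles replicate 2 and lines the mean of both. KLK2, KLK3 and KLK4 show the same profile, highest in DHT, then BIC.DHT and BIC.VEH, and lowest in APA.VEH.

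Differences were tested on log2(TPM + 1) with limma across 16636 genes, and called at a Benjamini-Hochberg adjusted p below 0.05. KLK2 and KLK3 ranked 1 and 2 of all genes by log2 fold change with DHT (6.57, SE 0.46, and 6.42, SE 0.64). KLK4 ranked 6 (3.88, SE 0.46, limma adjusted p = 0.00053) and KLK15 ranked 161 (1.69, SE 0.27, limma adjusted p = 0.0026). All 4 tested members were called higher with DHT, against 3.63% of all genes tested. KLK15 reached the filter only through 5 libraries that all contained DHT, so its place among the tested members rests on the groups in which it was high. Within each replicate number the KLK3 ratio of DHT to VEH was 77.3 and 101, that of KLK2 103 and 135, that of KLK4 12.5 and 18.4, and that of KLK15 8.64 and 12.7. The log2 fold change of KLK15 understates these ratios, since 1 was added to VEH levels below 1 TPM. When only the VEH and DHT libraries entered the fit, KLK15 was no longer called (limma adjusted p = 0.054). The basal markers summed to 1.74 and 1.92 TPM in DHT against 0.26 and 0.06 in VEH, with KRT5 and TP63 at or below 0.16 TPM in every library, and the fibroblast markers to 11.4 and 15.9 against 32.9 and 26.4 TPM. Their part in the kallikrein values was not tested.

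The response was uneven along the cluster. KLKP1, a transcribed pseudogene next to KLK2, was at 2.06 and 1.00 TPM in VEH and at 13.1 and 12.7 TPM in DHT (log2 fold change 2.49, SE 0.47, limma adjusted p = 0.0071). The distal members stayed near 0, with KLK10 listed above 0 in 2 of 16 libraries and never above 0.04 TPM, and KLK11 in 4 libraries and never above 0.08 TPM. KLK1, the tissue kallikrein that releases kinins from kininogen, was above 0 in 12 libraries with a maximum of 0.21 TPM, reached in ENZ.DHT replicate 1. Among the other 10 kallikrein genes listed, which include KLKB1, KLKP1 alone passed the filter. KLK8, KLK9 and KLK13 were listed at 0 in every library, and KLK14, the most distal gene of the cluster, ranged from 0.04 to 0.78 TPM.

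Of the 12 genes flanking the cluster, 4 passed the filter. C19orf48, a transcribed pseudogene just outside the cluster on the KLK1 side, rose from 56.8 and 61.8 TPM in VEH to 386 and 481 TPM in DHT (log2 fold change 2.84, SE 0.27, limma adjusted p = 0.00011). CTU1, a tRNA-modifying enzyme on the far side of the cluster, averaged 1.58 TPM in VEH and 1.89 TPM in DHT (log2 fold change 0.15, SE 0.19, limma adjusted p = 0.66). CLEC11A and JOSD2 differed by log2 fold changes of 0.04 (SE 0.33) and 0.21 (SE 0.30) and were not called. The tested genes of the region that were called higher thus lay between C19orf48 and KLK4, and the genes tested outside that interval were not called.

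**Figure D2:**
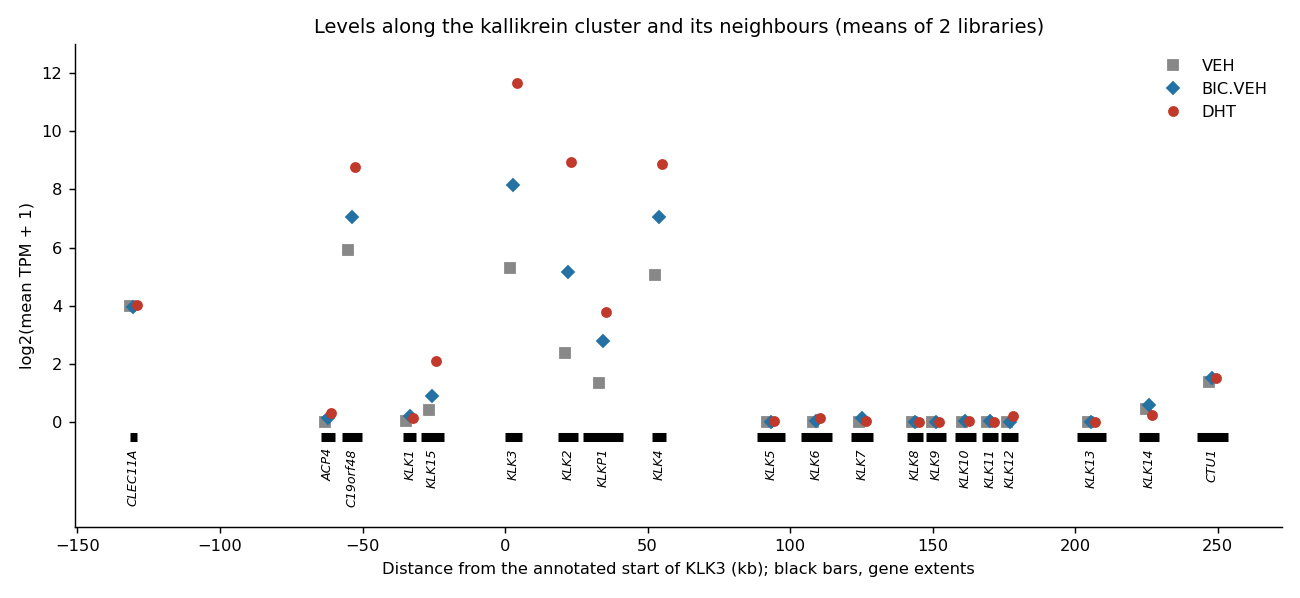
Mean level of 2 libraries, as log2(mean TPM + 1), along the kallikrein cluster and its nearest neighbours for VEH, BIC.VEH and DHT, against the distance in kb from the annotated start of KLK3; black bars are gene extents. C19orf48, KLK15, KLK3, KLK2, KLKP1 and KLK4 were higher in DHT than in VEH, with BIC.VEH in between, while KLK5 to KLK13 lay close to 0 in the 3 groups.

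The proportions of the 3 abundant kallikreins also differed between VEH and DHT, in ratios that were described and not tested. In VEH, KLK3 and KLK4 were nearly equal, with a TPM ratio of 1.18 ± 0.13 (SD, n = 2), whereas in DHT the ratio was 6.90 ± 1.34. KLK2 was a minor transcript in VEH, at 0.14 ± 0.04 of KLK4, and stood near it in DHT at 1.07 ± 0.18. The order of levels therefore went from KLK3, KLK4, KLK2 in VEH to KLK3 followed by KLK2 and KLK4 together in DHT, where KLK2 was below KLK4 in replicate 1 and above it in replicate 2. The ratio of KLK3 to KLK2 moved little in comparison, from 6.65 in DHT to 9.66 in APA.DHT by group means, and its 2 replicates often differed by more than the groups (8.31 and 5.00 in DHT, 11.1 and 6.67 in VEH). Together the 7 members took 0.0044% of all TPM in an APA.VEH library and 0.522% in a DHT library.

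**Figure D3:**
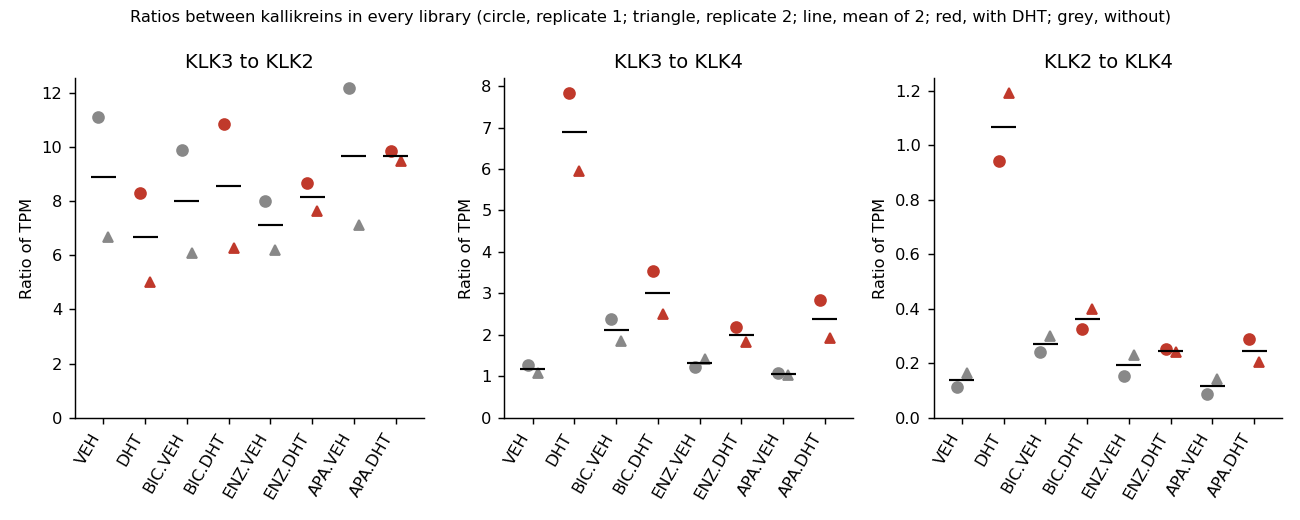
Ratios of TPM of KLK3 to KLK2, KLK3 to KLK4 and KLK2 to KLK4 in each library (circle, replicate 1; triangle, replicate 2; line, mean). The ratios to KLK4 were highest in DHT, at 6.90 for KLK3 and 1.07 for KLK2, while KLK3 to KLK2 stayed between 5.00 and 12.2 in every library.

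The next question was how far each antagonist lowered the kallikreins in the presence of DHT. The 3 comparisons share the DHT libraries. With BIC.DHT, KLK3 was measured at 845 and 445 TPM, KLK2 at 77.9 and 71.1 TPM, KLK4 at 239 and 178 TPM and KLK15 at 1.81 and 1.14 TPM. All these values lay below both DHT libraries and above both VEH libraries. KLK2 was the only member of 4 called lower (log2 fold change -2.70, SE 0.46, limma adjusted p = 0.011), where 1.68% of genes were called lower, and it was not called when any 1 of the DHT or BIC.DHT libraries was left out. KLK3 (-2.36, SE 0.64), KLK4 (-1.16, SE 0.46) and KLK15 (-0.80, SE 0.27) had limma adjusted p of 0.081, 0.25 and 0.16. With the replicate number as a block, all 3 were called too (limma adjusted p = 0.0012, 0.010 and 0.028), in a fit that called 6.82% of genes lower.

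With ENZ.DHT, KLK3 was at 296 and 115 TPM, KLK2 at 34.2 and 15.1 TPM, KLK4 at 136 and 62.8 TPM and KLK15 at 0.81 and 0.54 TPM. With APA.DHT the values were 339.8 and 90.3 TPM for KLK3, 34.6 and 9.53 TPM for KLK2, 119.7 and 46.7 TPM for KLK4 and 1.06 and 0.20 TPM for KLK15. Both libraries of either group lay below both DHT libraries for each of the 4 genes. All 4 were called lower with ENZ (4.91% of genes) and with APA (4.11%). KLK15 passed the filter only through libraries that contained DHT. Its calls against DHT, with BIC as well, and its interactions thus rest on the groups in which it was high. KLK4 fell by 2.31 on the log2 scale with ENZ (SE 0.46, limma adjusted p = 0.011) and by 2.61 with APA (SE 0.46, limma adjusted p = 0.0060). KLK15 fell by 1.35 with ENZ (SE 0.27, limma adjusted p = 0.010) and by 1.44 with APA (SE 0.27, limma adjusted p = 0.0077). Without DHT replicate 1, 2 of the 4 were called with ENZ and 2 with APA. In fits of the DHT group and 1 antagonist group alone, limma called none of the 4 members for any antagonist, although each had an unadjusted p below 0.05 in the fit of all 16 libraries. Such fits estimate the spread from 2 libraries a group. KLK2 with BIC kept -2.70 with an SE of 0.099 there, at a limma adjusted p of 0.081. The share of all genes called in these fits is not given here, so the lack of calls says little about the members.

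As a share of the DHT level within the same replicate number, BIC.DHT kept 19.5% ± 1.58 of KLK3, 15.2% ± 0.78 of KLK2, 44.7% ± 1.41 of KLK4 and 44.2% ± 4.79 of KLK15 (SD, n = 2). ENZ.DHT kept 5.98% ± 1.75 of KLK3, 5.02% ± 2.70 of KLK2, 20.7% ± 7.45 of KLK4 and 20.3% ± 1.39 of KLK15. In APA.DHT the shares were 6.01% ± 3.22, 4.48% ± 3.56, 17.2% ± 8.06 and 17.5% ± 14.7. KLK4 and KLK15 thus kept a higher share than KLK2 and KLK3 with each antagonist by the means, but without DHT they also stood at a higher share of the DHT level, 6.73% ± 1.84 and 9.73% ± 2.61 in VEH against 1.14% ± 0.21 for KLK3 and 0.86% ± 0.16 for KLK2.

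**Figure D4:**
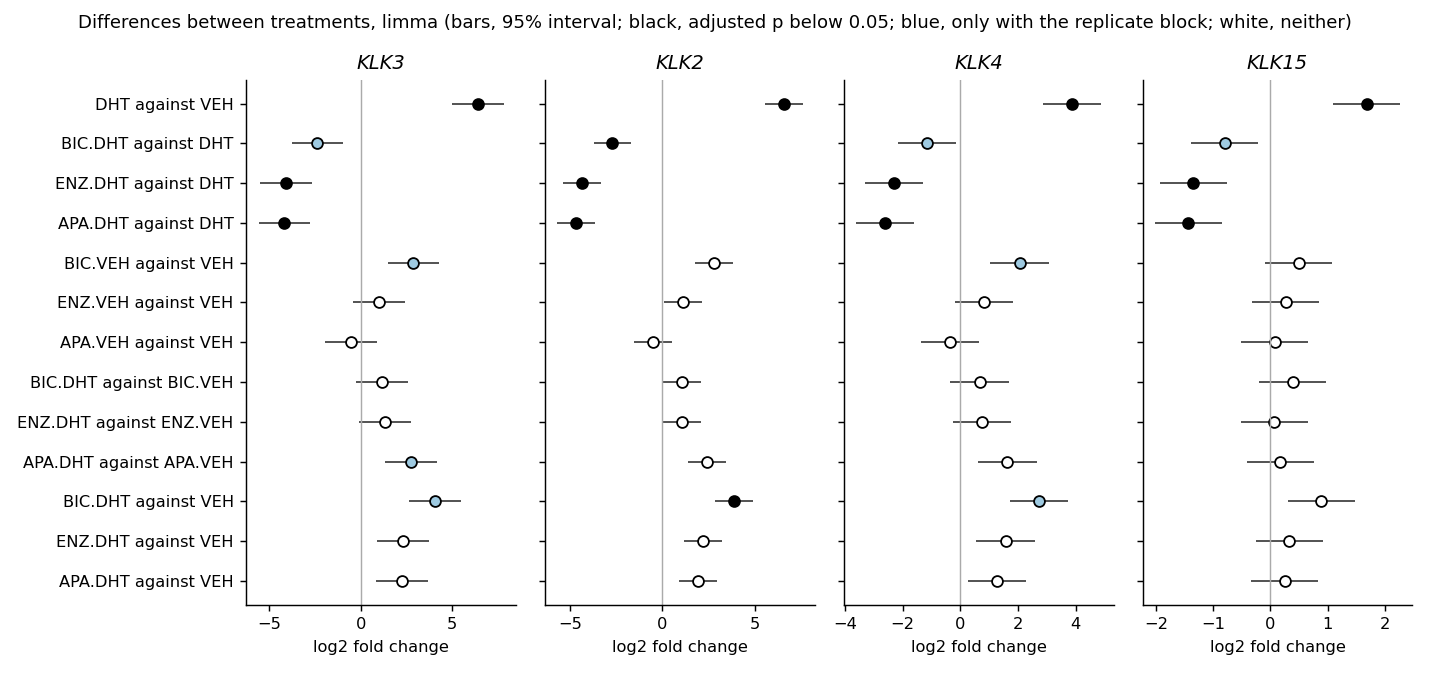
Log2 fold changes of log2(TPM + 1) with 95% intervals for KLK3, KLK2, KLK4 and KLK15 in 13 comparisons; black points had a limma adjusted p below 0.05, blue points only with the replicate block, and white points in neither fit. DHT against VEH lies farthest to the right for each gene, and the 3 comparisons of an antagonist with DHT against DHT lie to the left of 0.

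Antagonists given without androgen were compared with VEH. In BIC.VEH, KLK3 stood at 358 and 206 TPM, KLK2 at 36.2 and 33.7 TPM and KLK4 at 150.3 and 111.8 TPM, each above both VEH libraries. None of the 4 members was called by limma, and no gene of the 16636 was (0.0%), although 3 members had an unadjusted p below 0.05. The log2 fold changes were 2.89 for KLK3 (SE 0.64), 2.80 for KLK2 (SE 0.46) and 2.05 for KLK4 (SE 0.46). With the replicate block, 3 genes of 16636 were called higher (0.018%), and KLK3 and KLK4 were among them, each at a limma adjusted p of 0.035. KLK15 was at 0.76 and 0.98 TPM (log2 fold change 0.49, SE 0.27, unadjusted p = 0.091). BIC.VEH held 8.61% ± 0.17 of the DHT level of KLK3 and 28.1% ± 0.89 of that of KLK4.

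In ENZ.VEH, KLK3 was at 72.9 and 71.5 TPM, KLK2 at 9.09 and 11.6 TPM and KLK4 at 59.2 and 50.4 TPM. These values were above both VEH libraries for all 3 genes, but limma called none of the 4 members with or without the block, and none of the 16636 genes without it (0.0%), and 1 member, KLK2, had an unadjusted p of 0.033. APA.VEH was the lowest group for KLK2, KLK3 and KLK4 by the mean, with KLK3 at 30.4 and 20.4 TPM, KLK2 at 2.50 and 2.86 TPM and KLK4 at 28.0 and 19.9 TPM. For KLK2 both values lay below both VEH libraries, whereas for KLK3 and KLK4 the groups overlapped. Limma called no member in APA.VEH with or without the block (0.00601% of genes were called without it), no member had an unadjusted p below 0.05, and the KLK3 difference of -0.50 had a 95% interval of -1.92 to 0.91.

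Whether DHT still raised the kallikreins under an antagonist was tested within each arm. In the BIC arm the ratios of DHT to no DHT were 2.36 and 2.16 for KLK3, 2.15 and 2.11 for KLK2 and 1.59 and 1.59 for KLK4 in replicates 1 and 2. The ENZ arm gave ratios of 4.06 and 1.61 for KLK3, 3.76 and 1.30 for KLK2, and 2.30 and 1.25 for KLK4. The APA arm gave 11.2 and 4.43 for KLK3, 13.8 and 3.33 for KLK2, and 4.27 and 2.35 for KLK4. For these 3 genes all libraries with DHT lay above those without in every arm, but limma called none of the 4 members in any arm, where at most 1 gene of 16636 (0.00601%) was called in either direction. Unadjusted p was below 0.05 for 1 member with BIC, 1 with ENZ and 3 with APA. The block added KLK3 in the APA arm (log2 fold change 2.77, limma adjusted p = 0.018), where 0.018% of genes were called higher with it.

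Averaged over the 3 arms, the log2 fold change with DHT was 1.76 for KLK3 (SE 0.37, limma adjusted p = 0.46), 1.51 for KLK2 (SE 0.27, limma adjusted p = 0.39), 1.01 for KLK4 (SE 0.27, limma adjusted p = 0.46) and 0.21 for KLK15 (SE 0.15, limma adjusted p = 0.58), with 0.012% of genes called. With the block, KLK3 and KLK4 were called (limma adjusted p = 0.0095 and 0.037) among 8 genes of 16636 (0.0481%), and KLK2 was not (0.071). Without the APA.DHT replicate 2 library, the average for KLK2 was 1.81 and was called without a block (limma adjusted p = 0.011).

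Set against VEH, BIC.DHT left KLK2 higher (log2 fold change 3.87, SE 0.46, limma adjusted p = 0.034), as were 0.012% of genes. This call was lost without 12 of the 16 libraries in turn. KLK3 (4.06, SE 0.64) and KLK4 (2.72, SE 0.46) were called only with the block (limma adjusted p of 0.0015 for each, and 0.295% of genes). ENZ.DHT and APA.DHT gave log2 fold changes against VEH of 2.33 and 2.26 for KLK3, 2.21 and 1.91 for KLK2, and 1.57 and 1.27 for KLK4, and limma called none of the 4 members in either comparison, with 3 unadjusted p below 0.05 in each and at most 0.00601% of genes called. FKBP5, an androgen-induced gene that encodes a co-chaperone of steroid receptors, rose from 12.7 ± 1.07 TPM in VEH to 87.1 ± 8.01 TPM in DHT (log2 fold change 2.68, SE 0.24, limma adjusted p = 7.4e-05), while ENZ.DHT held it at 11.1 ± 3.56 TPM and APA.DHT at 11.9 ± 3.45 TPM.

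The change of the DHT effect by an antagonist was tested as an interaction, that is, the DHT effect with the antagonist minus the effect without it. BIC changed it by -5.50 for KLK2, -5.25 for KLK3 and -3.21 for KLK4 on the log2 scale, and these 3 of 4 members were called (0.667% of genes were called in this direction). For ENZ the same 3 members were called, at -5.49, -5.08 and -3.13 (1.05% of genes). KLK4 was close to the threshold in both. Its BIC interaction (limma adjusted p = 0.046) was not called with median-ratio scaling (0.053), after rescaling without mitochondrial genes (0.059), without the variance trend (0.054) or without the filter (0.095). With ENZ (limma adjusted p = 0.039) it was not called with median-ratio scaling (0.051), without the filter (0.083) or with only the compared groups in the fit (0.12). KLK3 was not called without the filter for BIC (limma adjusted p = 0.05) or with only the compared groups for ENZ (0.053). For APA only KLK2 was called, at -4.17 (0.805% of genes), and KLK3 at -3.66 and KLK4 at -2.25 had limma adjusted p of 0.090 and 0.14. KLK15 had interactions of -1.29, -1.62 and -1.52 with BIC, ENZ and APA that were not called (limma adjusted p = 0.17, 0.063 and 0.090). Leaving out 1 library at a time took the number called as low as 1 for BIC, 1 for ENZ and 0 for APA. With the block all 4 members were called for each antagonist. The largest limma adjusted p was 0.025, at KLK15 with BIC. These fits called 3.15%, 5.72% and 4.91% of genes lower for BIC, ENZ and APA. Each interaction also takes in the level under the antagonist without DHT. Its size therefore does not rank the antagonists by the level left with DHT. For KLK2, BIC, ENZ and APA with DHT differed from DHT by -2.70, -4.37 and -4.66. Without DHT they differed from VEH by 2.80, 1.13 and -0.49.

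Comparison of the antagonists with each other at the same 10 µM dose covered 6 group pairs. With DHT present, ENZ.DHT minus BIC.DHT was -1.73 for KLK3 (95% interval -3.14 to -0.31), -1.66 for KLK2 (-2.69 to -0.64) and -1.15 for KLK4 (-2.16 to -0.14). APA.DHT minus BIC.DHT was -1.80 for KLK3 (-3.21 to -0.39), -1.96 for KLK2 (-2.98 to -0.94) and -1.45 for KLK4 (-2.46 to -0.44). These intervals leave out 0 but are not adjusted for the genes tested, and limma called none of the 4 members in either pair, with or without the block, at 3 and 4 unadjusted p below 0.05 and with 0.00601% and 0.0% of genes called. Both libraries of ENZ.DHT and of APA.DHT lay below both of BIC.DHT for KLK2, KLK3, KLK4 and KLK15.

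The thiohydantoins, ENZ and APA, gave near-equal means with DHT. APA.DHT minus ENZ.DHT was -0.07 for KLK3 (95% interval -1.48 to 1.34), -0.30 for KLK2 (-1.32 to 0.72), -0.30 for KLK4 (-1.31 to 0.71) and -0.09 for KLK15 (-0.67 to 0.50), none called by limma and none with an unadjusted p below 0.05 (0.00601% of genes were called). The KLK3 interval reaches beyond 2-fold either way, but it comes from the fit without the replicate block. With the block the SE of this KLK3 difference was 0.32, against 0.64 without it. The sign of all 4 differences turned positive without APA.DHT replicate 2, with KLK3 at 0.88 and KLK2 at 0.58.

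Without DHT the order was BIC, then ENZ, then APA for KLK2, KLK3 and KLK4. APA.VEH minus BIC.VEH was -3.39 for KLK3 (95% interval -4.81 to -1.98), -3.29 for KLK2 (-4.31 to -2.27) and -2.41 for KLK4 (-3.42 to -1.39), with limma adjusted p of 0.40, 0.074 and 0.40 (0.012% of genes were called). With the block all 3 genes were called (limma adjusted p = 0.003, 0.012 and 0.003), among 13 genes of 16636 called lower (0.0781%). ENZ.VEH minus BIC.VEH was -1.90 for KLK3, -1.67 for KLK2 and -1.23 for KLK4, and APA.VEH minus ENZ.VEH was -1.50, -1.62 and -1.18. In both of these pairs limma called none of the 4 members, with or without the block, 3 had an unadjusted p below 0.05, and at most 0.00601% of genes were called.

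**Figure D5:**
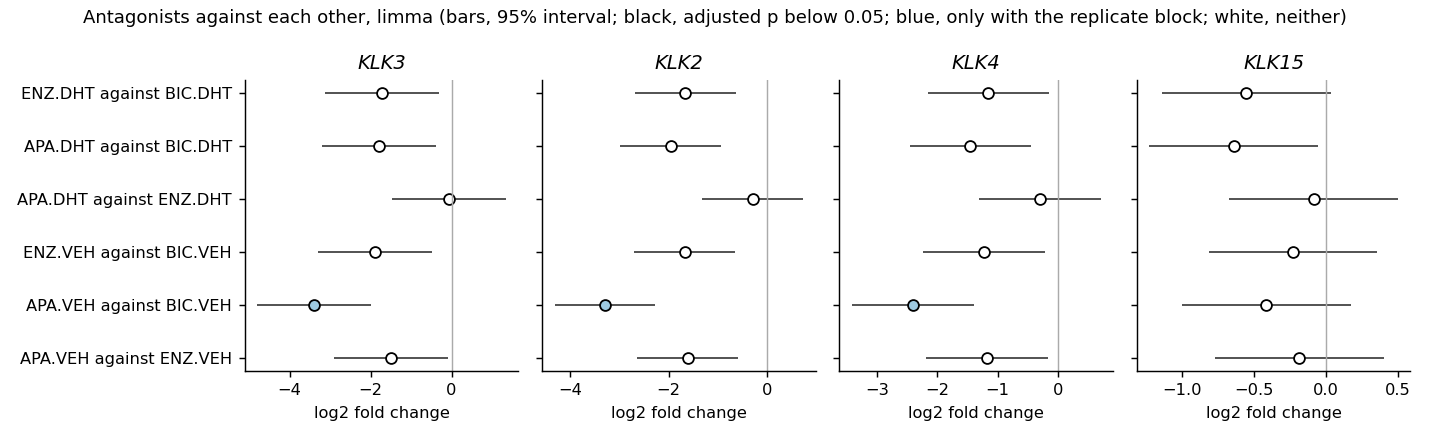
Differences between antagonists on log2(TPM + 1) with 95% intervals for 4 kallikreins, with DHT (upper 3 rows) and without (lower 3 rows); colours as in the plot of treatment comparisons. APA against ENZ with DHT lies between -0.30 and -0.07, with intervals that cross 0. The 3 blue points are KLK3, KLK2 and KLK4 in APA.VEH against BIC.VEH.

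Ordered by the mean, KLK3 ran from DHT (3262 TPM) through BIC.DHT (645), BIC.VEH (282), APA.DHT (215), ENZ.DHT (205), ENZ.VEH (72.2) and VEH (38.5) to APA.VEH (25.4). KLK2 and KLK4 had the same order except that ENZ.DHT stood above APA.DHT. Neighbours in the KLK3 order did not overlap at 4 steps, DHT to BIC.DHT, BIC.DHT to BIC.VEH, ENZ.DHT to ENZ.VEH and ENZ.VEH to VEH. The libraries overlapped at the other 3 steps, BIC.VEH to APA.DHT, APA.DHT to ENZ.DHT and VEH to APA.VEH. BIC without any androgen therefore gave a KLK3 mean above those of ENZ and APA together with DHT. The pooled libraries overlapped, but within each replicate number BIC.VEH was the higher, at 358 TPM against 296 and 339.8 TPM in ENZ.DHT and APA.DHT for replicate 1 and at 206 against 115 and 90.3 TPM for replicate 2. This difference was not tested.

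The spread itself had a direction. Replicate 1 was above replicate 2 in 8 of 8 groups for KLK3 and KLK4, in 7 for KLK15 and in 6 for KLK2. The ratio of replicate 1 to replicate 2 for KLK3 ran from 1.02 in ENZ.VEH to 3.76 in APA.DHT, and for KLK4 from 1.17 to 2.56. KLK2 was at 494 and 485 TPM in DHT, a ratio of 1.02, where KLK3 had a ratio of 1.69. The mitochondrial share of TPM (14.7% to 22.3% per library) and the leukocyte marker sum, carried by CD68 with PTPRC at or below 0.10 TPM and CD3E at 0 in every library, were also higher in replicate 1 in 8 of 8 groups. Their part in the kallikrein values was not tested. The DHT calls of all 4 members held when TPM was rescaled without the mitochondrial genes, whereas the BIC interaction of KLK4 was then not called. Such rescaling multiplies all remaining genes of a library by 1 factor, so it does not test other differences between the replicates.

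By likeness of profile over the 16 libraries, among 11064 genes with a mean of at least 5 TPM, the gene closest to KLK3 was KLK4 (Pearson r = 0.992 on log2(TPM + 1)), followed by KLK2 (0.988) and EAF2 (0.970). KLK2 had KLK3, KLK4 (0.979) and EAF2 (0.978) as its closest genes, and KLK4 had KLK3, KLK2 and OACYLP (0.956). EAF2, which encodes a factor of transcription elongation, was at 4.96 TPM in VEH, 40.3 in DHT, 12.3 in BIC.VEH and 4.71 in APA.VEH by the mean. These correlations describe libraries that share groups and replicate numbers. KLK2 and KLK3 are close paralogs. The longest stretch shared by Gencode transcripts of both genes was 60 bases, below the read length of 125 bases. Of 7424 distinct 125-base stretches of KLK2, 0 occurred in KLK3. Only identical stretches were compared, from a Gencode release other than that used for the TPM. Whether reads were assigned to the wrong gene was not tested.

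Genes that act on or around kallikreins were read from lists. Of 16 inhibitors, 7 passed the filter, and 1 was called lower with DHT, beside 6.64% of all genes. SERPINE2 (protease nexin 1) was at 6.42 ± 0.67 TPM in VEH and 2.02 ± 0.02 TPM in DHT (log2 fold change -1.29, SE 0.27, limma adjusted p = 0.011). The transmembrane inhibitors SPINT1 and SPINT2 were abundant, at 180.1 to 271 and 443 to 627 TPM, and were not called without the block. With it SPINT2 was called lower too (log2 fold change -0.28, limma adjusted p = 0.027), which made 2 of 7, in a fit that called 16.8% of genes lower. SERPINA3, which encodes the antichymotrypsin that complexes PSA in serum, ranged from 0.40 to 4.36 TPM (log2 fold change 0.29, SE 0.62), and SERPINA5, the protein C inhibitor of seminal plasma, never exceeded 0.32 TPM. The inhibitors had a median log2 fold change of -0.28, against -0.10 over all genes tested.

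Of 20 genes listed as substrates and receptors, with seminal proteins such as MSMB counted among them, 9 passed the filter, with a median log2 fold change of -0.59. DHT called 3 of the 9 higher and 1 lower, beside 3.63% and 6.64% of all genes. With the block 3 were called lower, where 16.8% of genes were, as FN1 (fibronectin, -1.09) and F2R (the thrombin receptor, -0.85) were added (limma adjusted p = 0.00033 and 0.0073). The receptors called higher were F2RL1 (protease-activated receptor 2), at 12.7 ± 0.62 TPM in VEH and 24.5 ± 0.61 TPM in DHT (0.90, SE 0.21, limma adjusted p = 0.021), and the kinin receptor BDKRB1, at 0.38 and 1.43 TPM in VEH and DHT by the mean (0.80, SE 0.18, limma adjusted p = 0.015). MSMB, a secreted seminal protein, was at 0.41 ± 0.24 TPM in VEH and 2.15 ± 0.04 TPM in DHT (1.17, SE 0.26, limma adjusted p = 0.014). BDKRB1 reached 1 TPM only in the 2 DHT libraries, and MSMB in those and 1 BIC.VEH library, so both were tested only through the group in which they were high. IGFBP3, a binding protein of insulin-like growth factors that PSA cleaves, was at 318 ± 43.1 TPM in VEH and 117 ± 9.37 TPM in DHT (-1.42, SE 0.25, limma adjusted p = 0.0051). In BIC.DHT, ENZ.DHT and APA.DHT, IGFBP3 averaged 325, 325 and 366 TPM, each called above DHT. SEMG1 and SEMG2, the semenogelin substrates of PSA, never exceeded 0.19 and 0.09 TPM.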

How the data were processed

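RNA-seq was analysed from LNCaP cells in 8 groups of 2 libraries, grouped by the labels. Libraries were stranded, polyA-selected and sequenced as 125 bp pairs. The submitters' processing notes name FastQC 0.11.9, Trim Galore 0.6.5, STAR 2.7.2b, RSEM 1.3.3 and GRCh38. The authors deposited TPM per gene, which scale each library to a fixed total, so abundant transcripts lower the values of others. No column belonged to other samples (0). Members and lists were chosen with earlier results of these data known.

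Genes at 1 TPM or more in at least 2 libraries were tested on log2(TPM + 1) with limma 3.58.1 (R 4.3.3), all 16 libraries in 1 fit, a variance trend, and Benjamini-Hochberg adjustment within each comparison; Python 3.11.15 was used elsewhere. The tests were checked on simulated data with independent noise in each library, which leaves out the pairing of replicates described next. Replicate numbers paired the libraries, since deviations from the group means correlated at 0.204 to 0.635 between same-numbered libraries in 28 of 28 group pairs. Fits with the number as a block are given where they changed a call printed here. Alternatives were a pseudocount of 0.1, no filter, a filter at 5 TPM, median-ratio scaling, removal of mitochondrial genes, no variance trend, the compared groups alone, the block, and leaving out each library.

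Genes named are all members, every other kallikrein or neighbour past the filter, up to 4 called genes per other list with groups that did not overlap, and the 3 genes most like KLK2, KLK3 and KLK4. SPINT1, SPINT2, SERPINA3, SERPINA5, SEMG1, SEMG2, FN1, F2R and genes listed near 0 were added after their values were seen. The results of some listed genes are not reported here.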

Additional observations from a re-analysis of the deposited data

Results flagged for a closer look

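The DHT effect differed between cells with and without an antagonist by the interaction test for 7 pairs of gene and antagonist. For BIC the interactions on the log2 scale were -5.50 for KLK2, -5.25 for KLK3 and -3.21 for KLK4. With ENZ they were -5.49, -5.08 and -3.13, and with APA the interaction was -4.17 for KLK2. Each had a limma adjusted p below 0.05 in the fit of all 16 libraries, which called 0.667%, 1.05% and 0.805% of genes lower for BIC, ENZ and APA. The KLK3 and KLK4 calls, and that of KLK2 with APA, were each lost in an alternative that kept all libraries compared.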

How the results depend on the processing

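All 4 tested members kept their direction in all 713 combinations of comparison and alternative that used all libraries of the groups compared. The filters, the variance trend, the block and the compared groups alone leave the log2 fold change unchanged, so they could not turn a direction. Only the pseudocount, the median-ratio scaling and the removal of mitochondrial genes could have done so. The number of members called with DHT against VEH was 4, and 3 with a filter at 5 TPM, which removes KLK15, or with only the compared groups in the fit. With the replicate block the members called were 4 for BIC.DHT against DHT, 2 for BIC.VEH against VEH, 1 for APA.DHT against APA.VEH, 2 for the average over the antagonist arms, 4 for the APA interaction, 3 for APA.VEH against BIC.VEH and 3 for BIC.DHT against VEH. Of all genes, these fits called 6.82% lower in BIC.DHT against DHT, 4.91% lower in the APA interaction and 0.0781% lower in APA.VEH against BIC.VEH. They called 0.018% higher in BIC.VEH against VEH and in APA.DHT against APA.VEH, and 0.295% higher in BIC.DHT against VEH. For the average, 0.0481% were called in either direction. The block added the KLK15 interactions with BIC and ENZ and changed no other call of a member. For the other alternatives and for leaving out libraries, the share of all genes called is not given here. Their counts of members therefore cannot be set beside such a share. With only the compared groups in the fit, which leaves fewer samples to estimate the spread, 0 members were called in BIC.DHT, ENZ.DHT and APA.DHT against DHT, in the APA interaction and in BIC.DHT against VEH, and 1 in the ENZ interaction. Without the filter 1 member was called in the BIC interaction, where KLK4 was also lost with median-ratio scaling, without mitochondrial genes and without the variance trend. In the ENZ interaction KLK4 was lost without the filter and with median-ratio scaling. A pseudocount of 0.1 gave 1 call in APA.VEH against BIC.VEH and 0 in BIC.DHT against VEH, where median-ratio scaling also gave 0; the cause was not tested.

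Leaving out 1 library at a time gave 0 to 2 members called in BIC.DHT against DHT (0 without any DHT or BIC.DHT library, 2 without either APA.DHT library), 2 to 4 in ENZ.DHT and in APA.DHT against DHT (2 without DHT replicate 1), and 0 to 1 in BIC.VEH against VEH, APA.VEH against BIC.VEH (1 without either APA.DHT library), APA.DHT against APA.VEH and the average over the arms (1 without APA.DHT replicate 2). It gave 1 to 3 in the BIC interaction (1 without VEH replicate 2 or any DHT, BIC.VEH or BIC.DHT library), 1 to 4 in the ENZ interaction (1 without VEH replicate 2, DHT replicate 1, ENZ.DHT replicate 2 or either ENZ.VEH library) and 0 to 3 in the APA interaction (0 without replicate 2 of VEH or APA.VEH, 3 without APA.DHT replicate 1). In BIC.DHT against VEH the range was 0 to 1, with 1 only when an ENZ.DHT or APA.DHT library was left out. Some differences that were not called changed sign. APA.DHT against ENZ.DHT ran from -1.18, -1.02, -0.97 and -0.48 for KLK2, KLK3, KLK4 and KLK15 without APA.DHT replicate 1 to 0.58, 0.88, 0.37 and 0.30 without its replicate 2. APA.VEH against VEH was 0.051, 0.093 and 0.20 for KLK3, KLK4 and KLK15 without VEH replicate 1, and -1.06, -0.80 and -0.041 without its replicate 2. KLK15 ran from -0.12 to 0.25 in ENZ.DHT against ENZ.VEH (without ENZ.VEH replicates 2 and 1), and, without APA.DHT replicates 1 and 2, from -0.22 to 0.56 in APA.DHT against APA.VEH and from -0.14 to 0.64 in APA.DHT against VEH. With 2 libraries a group and no measured depth of each library, the precision of the low members is limited.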
